A study of Mus musculus with 6 samples.

Results

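Aminoacyl-tRNA synthetases were examined in mouse aortic smooth muscle cells (MASMCs) transduced with an adenovirus carrying PDK4 or with a control adenovirus. Members were the protein-coding genes named by the one-letter amino acid code followed by "ars", with or without a final 1 or 2, together with Eprs, Farsa, Farsb, Fars2 and Tarsl2. Reported here are 37 of these genes, 21 counted as cytosolic and 16 as mitochondrial, of the 54532 genes in the deposited table. Members were matched by gene name.

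Each synthetase joins an amino acid to its own tRNAs, which is the step at which the genetic code is read into amino acids. Mammalian cells make proteins in the cytosol and, separately, in the mitochondrial matrix, and most amino acids have a synthetase encoded in the nucleus for each place. Genes whose names end in 2 encode the mitochondrial enzymes. Tarsl2 is the exception, since it encodes a second threonine enzyme found outside mitochondria, and it was counted as cytosolic. Gars (glycine) and Kars (lysine) each serve both compartments from one gene and were also kept with the cytosolic set. Several cytosolic enzymes are held together in a multi-synthetase complex with 3 scaffold proteins. In stressed or amino acid-starved cells, the transcription factor ATF4 is known to raise many cytosolic synthetase mRNAs, and Wars is a known target of interferon gamma.

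The series held 6 RNA-seq libraries, 3 labelled Ad-Con (control plasmid in an adenoviral vector) and 3 labelled Ad-PDK4 (pyruvate dehydrogenase kinase 4 overexpression plasmid in the same kind of vector). The cells were wild-type vascular smooth muscle cells per the labels. According to the study's methods they were isolated by collagenase digestion from abdominal aortas of adult wild-type mice and used after several passages, and both groups received angiotensin II (Ang II), which the labels do not name. The study describes the 3 libraries of a group as biological replicates, without saying whether each came from its own mouse, so p-values measure the spread between these libraries. No untransduced cells and no Ang II-free cells were among the samples, so what the vector and Ang II did in both groups alike cannot be read from these libraries.

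Depth was 17588942 to 21861872 counted reads per library, and each library gave between 70 and 7816 reads for each synthetase. The targeted gene went against its label. Pdk4, on chr6:5483351-5496309 (minus strand), was 10.0 ± 0.469 FPKM (mean ± SD, n = 3; fragments per kilobase of gene, scaled to library size) in Ad-Con and 7.48 ± 0.162 FPKM in the libraries labelled Ad-PDK4 (log2 fold change -0.42, limma adjusted p = 0.00114). The study's methods list primers for a PDK4 plasmid that are those of its mouse gene, but the insert of the adenovirus itself is not described in the sources used here. Directions below therefore are those of the libraries labelled Ad-PDK4. Among 8 smooth muscle markers, 3 reached a mean of 0.5 FPKM over the 6 libraries. Acta2 was 78.0 ± 0.950 FPKM in Ad-Con and 36.2 ± 2.40 FPKM in Ad-PDK4 and was the 1 called lower, Smtn was at 8.32 and 8.44 FPKM and did not pass, and neither did Lmod1. Myh11, the smooth muscle myosin heavy chain that defines contractile cells, had at most 10 reads in any library. Cnn1, Tagln, Des and Myocd were also below the minimum, at 0.466, 0.341, 0.186 and 0.0161 FPKM in Ad-Con. The summed level of the 8 markers was 87.0 to 88.7 FPKM in Ad-Con and 43.2 to 48.0 FPKM in Ad-PDK4. All 5 fibroblast markers were over that minimum, summing to 1247 to 1341 FPKM in Ad-Con and 661 to 734 FPKM in Ad-PDK4. Their directions differed: 3 were lower, among them Col1a1 (log2 fold change -1.28), which holds most of the sum, Dcn was higher (0.83) and Pdgfra did not pass (-0.05). Of 9 macrophage and leukocyte markers 3 reached the minimum (summed level 27.8 to 30.9 FPKM in Ad-Con and 24.7 to 27.5 FPKM in Ad-PDK4), of which Cd14 was higher (log2 fold change 0.55) and Cd68 lower (-1.74), while Ptprc, Tyrobp and Cd3e had no read in any library, and 1 of 6 endothelial markers reached it (sums of at most 0.798 and 1.18 FPKM in the respective groups) with Tie1 at 0. The part of these marker changes in the synthetase results was not tested. In bulk samples, fewer cells of a type and less RNA per cell cannot be told apart.

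Because most cytosolic members moved together, the DNA around their annotated starts was read for the core of the ATF4 and C/EBP composite element, TGATGCAA, on either strand. RefSeq (GRCm38.p6) gave a window from 250 bases before to 50 bases after the start for 28 of the 37 genes, 14 cytosolic and 14 mitochondrial. The core lay in the windows of 4 cytosolic genes, Aars, Iars, Tars and Yars, and in none of the 14 mitochondrial ones. Over all 27025 genes with a window, 1.03% held it. The sites of Iars, Tars and Yars are shown with the core in capitals, as read 5′ to 3′ on the strand of the gene. TTGCATCA is the same element on the opposite strand.
Iars (chr13:49682126-49682155, plus strand): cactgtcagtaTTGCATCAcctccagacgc
Tars (chr15:11399655-11399684, minus strand): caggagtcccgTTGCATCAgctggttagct
Yars (chr4:129189895-129189924, plus strand): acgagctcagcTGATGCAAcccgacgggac

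The element began 15 bases before the annotated start in Tars. In Iars and Yars it began 7 and 3 bases after the start. Each of the 4 mRNAs with the core was called higher in Ad-PDK4, but so were 6 of the 10 cytosolic genes whose window lacked it, against 21.8% of all tested genes. The element was searched knowing that cytosolic genes rose, and its part in the rise was not tested. A transcript start annotated by GENCODE lay in the windows of 22 of the 28 genes, and that of Aars was not among them. None of the 4 matches overlapped a match to the other motifs searched. The core of the interferon-stimulated response element, GAAANNGAA, matched 1 of the 28 genes (Qars) against 9.76% of all genes. The gamma-activated site, TTCNNNGAA, which reads alike on both strands, matched 3 (Aars, Kars and Nars2) against 9.55%. The ETS motif CCGGAAGT, bound by GABP, matched 3 (Farsa, Mars and Rars2) against 4.31%, and part of the NRF1 motif, GCGCANGC, matched 10, evenly divided between the compartments, against 11.2%. A match is a description of the letters in these windows. The genes without a window were Cars, Hars, Hars2, Lars, Nars, Pars2, Rars, Vars and Wars.

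Cytosolic synthetase mRNAs were mostly higher in Ad-PDK4, by 15.3% to 54.8% in mean FPKM among those that passed the test, and the mitochondrial ones showed no common direction. Of the 21 cytosolic genes, 14 rose, 2 fell and 5 did not pass (limma on log2(FPKM + 0.1), Benjamini-Hochberg adjusted p below 0.05 over 13423 genes with a mean of at least 0.5 FPKM). Of the 16 mitochondrial genes, 2 rose, 2 fell and 12 did not pass. Over all tested genes, 21.8% were called higher and 20.8% lower. The cytosolic share called higher, 66.7%, was therefore above the background. The mitochondrial shares, 12.5% in each direction, rest on 2 of 16 genes each and are too few to set apart from it. The background was not matched for level: 5726 of 13423 genes were called in this fit, but 4043 of 7731 with a filter at a mean of 5 FPKM. The median log2 fold change was 0.28 over the cytosolic genes, 0.012 over the mitochondrial genes and -0.0031 over all tested genes. No synthetase passed the test with a fold change of at least 2 on the log2(FPKM + 0.1) scale, which 6.63% of all tested genes did in either direction. All 37 members passed the filter on low values.

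**Figure D1:**
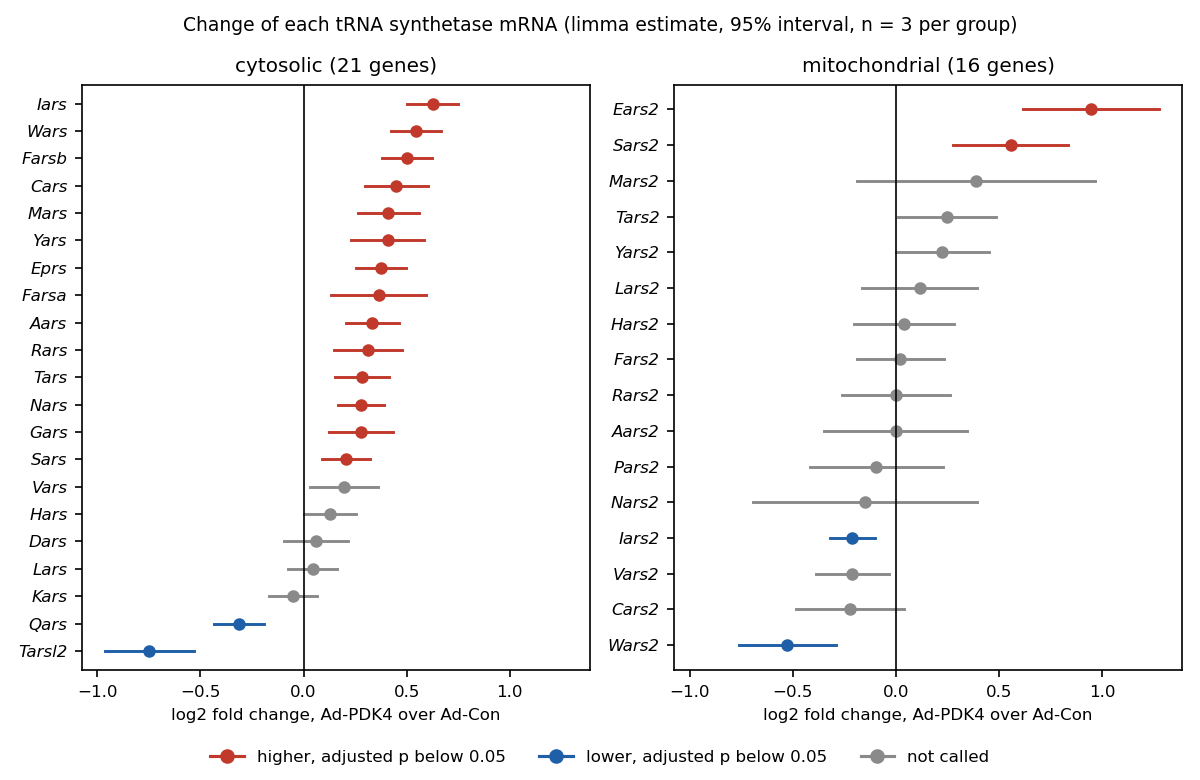
Log2 fold change of each synthetase mRNA, Ad-PDK4 over Ad-Con, as the limma estimate (point) with its 95% interval (line), n = 3 libraries per group, for the 21 cytosolic genes (left) and the 16 mitochondrial genes (right). Cytosolic estimates run from -0.75 for Tarsl2 to 0.63 for Iars with 18 of 21 above 0, and mitochondrial ones from -0.53 for Wars2 to 0.95 for Ears2 with 9 of 16 above 0.

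In 16 of 21 cytosolic genes all 3 Ad-PDK4 values lay above the 3 Ad-Con values, against 27.8% of all tested genes, and in 2, Qars and Tarsl2, they lay below, against 26.5%. Separation in either direction was found in 54.3% of all tested genes, and Dars, Lars and Kars were the genes whose groups overlapped. Among the 16 mitochondrial genes the Ad-PDK4 values lay above in 4 and below in 4. Summed over the 21 cytosolic genes, the level was 574, 580 and 598 FPKM in the Ad-Con libraries and 684, 690 and 695 FPKM in the Ad-PDK4 libraries, a change in the mean of 18.1%. The mitochondrial sum was 69.1, 71.96 and 69.3 FPKM in Ad-Con and 68.7, 70.5 and 69.8 FPKM in Ad-PDK4, so that its groups overlapped and its mean differed by -0.690%. The ratio of the cytosolic to the mitochondrial sum was accordingly 8.34 ± 0.289 in Ad-Con and 9.91 ± 0.0993 in Ad-PDK4 (mean ± SD, n = 3).

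**Figure D2:**
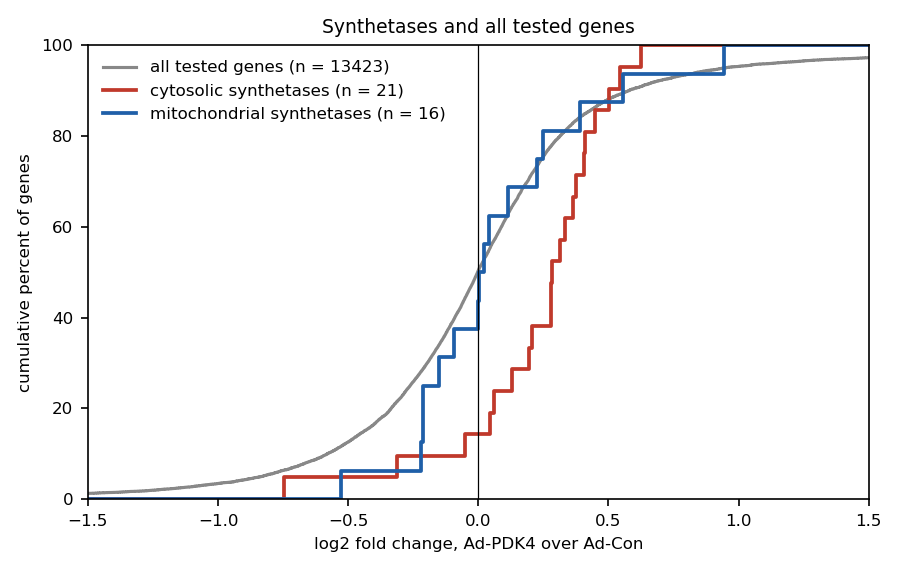
Cumulative percent of genes (y axis) against log2 fold change, Ad-PDK4 over Ad-Con (x axis, shown from -1.5 to 1.5), for the 13423 tested genes, the 21 cytosolic synthetases and the 16 mitochondrial synthetases. The cytosolic curve lies to the right of the curve of all genes over most of its length, with a median of 0.28, and the mitochondrial curve crosses 0 near its middle as the curve of all genes does.

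The largest cytosolic rise was in Iars, the isoleucine enzyme and a member of the multi-synthetase complex, on chr13:49682100-49734267. Its level was 15.9, 16.1 and 16.4 FPKM in Ad-Con and 26.1, 23.9 and 24.9 FPKM in Ad-PDK4 (16.1 ± 0.287 against 24.97 ± 1.13 FPKM; log2 fold change 0.63, SE 0.05, adjusted p = 6.89e-05). Every Ad-PDK4 library stood well above every Ad-Con library. A stretch of 11.6% of its longest transcript is shared with the pseudogene Gm4849, which had at most 1 read in any library. How reads matching both were assigned is not given, so that count does not show whether Gm4849 was silent. Wars, the tryptophan enzyme, on chr12:108860030-108894174, was at 15.4, 15.1 and 15.9 FPKM in Ad-Con and at 23.4, 22.6 and 21.8 FPKM in Ad-PDK4 (15.5 ± 0.440 against 22.6 ± 0.777 FPKM; log2 fold change 0.54, SE 0.05, adjusted p = 0.000133). Its groups were as clearly apart as those of Iars.

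Phenylalanine is charged in the cytosol by an enzyme of a pair of alpha and a pair of beta subunits, encoded by Farsa and Farsb. Farsb, on chr1:78417975-78488897, was at 15.02, 14.6 and 14.7 FPKM in Ad-Con and 20.47, 20.52 and 22.0 FPKM in Ad-PDK4 (14.8 ± 0.214 against 20.98 ± 0.847 FPKM; log2 fold change 0.50, SE 0.05, adjusted p = 0.000196). Its libraries were tightly grouped on each side. Farsa was at 11.2, 12.02 and 11.8 FPKM in Ad-Con and 14.7, 17.6 and 13.3 FPKM in Ad-PDK4 (log2 fold change 0.36, SE 0.10, adjusted p = 0.0197). The Ad-PDK4 values of Farsa were widely spread, and its adjusted p was 0.0626 without Ad-Con replicate 1 and reached the threshold of 0.05 without Ad-Con replicate 3. The other 13 cytosolic genes called higher each stayed past the threshold when any single library was left out.

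Cars, the cysteine enzyme, on chr7:143557230-143600090, was at 12.2, 11.1 and 12.6 FPKM in Ad-Con and 16.8, 16.6 and 15.7 FPKM in Ad-PDK4 (11.96 ± 0.795 against 16.4 ± 0.618 FPKM; log2 fold change 0.45, SE 0.07, adjusted p = 0.00114). The lowest Ad-PDK4 library was above the highest Ad-Con library by more than the range within either group. Mars, the methionine enzyme, which charges initiator as well as elongator tRNA, on chr10:127296221-127311786, was at 22.3, 23.1 and 23.2 FPKM in Ad-Con and 29.2, 33.2 and 29.0 FPKM in Ad-PDK4 (22.9 ± 0.509 against 30.5 ± 2.38 FPKM; log2 fold change 0.41, SE 0.06, adjusted p = 0.00158). Exons of Mars share 68 bases, 1.99% of their length, with Ddit3 on the opposite strand, whose log2 fold change was 1.99. Yars, the tyrosine enzyme, on chr4:129189760-129219607, was at 7.52, 6.99 and 7.35 FPKM in Ad-Con and 9.48, 10.7 and 9.02 FPKM in Ad-PDK4 (7.29 ± 0.274 against 9.72 ± 0.848 FPKM; log2 fold change 0.41, SE 0.08, adjusted p = 0.00377). Whether reads were counted by strand is not given in the sources used here.

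Another 7 cytosolic genes rose. They were Eprs, the joined glutamate and proline enzyme, Aars (alanine), Rars (arginine), Tars (threonine), Nars (asparagine), Gars (glycine) and Sars (serine), with log2 fold changes from 0.37 for Eprs down to 0.21 for Sars and adjusted p from 0.000925 to 0.0117. Their groups did not overlap in any of the 7. Nars had the highest level of all synthetases and added the most to the rise in the cytosolic sum, at 107 ± 3.24 FPKM in Ad-Con and 129 ± 4.60 FPKM in Ad-PDK4. The exons of Aars overlap Exosc6 on the same strand over 14.3% of their length, and Exosc6 had no read in any library. How reads lying in both genes were assigned is not given, so this lack of reads does not show that Exosc6 was silent.

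A further 5 cytosolic genes did not pass the test. Vars (valine) had a log2 fold change of 0.20 (95% interval 0.03 to 0.36, adjusted p = 0.0570) and Hars (histidine) one of 0.13 (0.0041 to 0.25, adjusted p = 0.0899), and in both the Ad-PDK4 libraries lay above the Ad-Con libraries. Vars passed without Ad-PDK4 replicate 3 (adjusted p = 0.0333). Dars (aspartate), Lars (leucine) and Kars (lysine) had log2 fold changes of 0.06, 0.04 and -0.05, with intervals from -0.10 to 0.22, from -0.07 to 0.16 and from -0.17 to 0.07. These intervals leave out a change of the size of Iars, Wars or Farsb in these 3 genes.

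The 2 cytosolic genes that fell were Qars and Tarsl2. Qars, the glutamine enzyme, on chr9:108507706-108515941, was at 24.5, 25.9 and 26.0 FPKM in Ad-Con and 20.8, 21.1 and 19.6 FPKM in Ad-PDK4 (25.5 ± 0.803 against 20.48 ± 0.765 FPKM; log2 fold change -0.31, SE 0.05, adjusted p = 0.00235). It was lower in every Ad-PDK4 library, and it belongs to the same complex as Iars and Mars. Tarsl2, the second threonine enzyme, on chr7:65644898-65692091, was at 3.72, 3.42 and 3.66 FPKM in Ad-Con and 2.01, 2.04 and 2.27 FPKM in Ad-PDK4 (3.60 ± 0.159 against 2.11 ± 0.143 FPKM; log2 fold change -0.75, SE 0.09, adjusted p = 0.000486). Tarsl2 thus moved against Tars, the main threonine enzyme, whose level was 15.9 ± 0.593 FPKM in Ad-Con and 19.4 ± 0.786 FPKM in Ad-PDK4.

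Genes that rose were found both inside and outside the multi-synthetase complex. Of its 8 synthetases, Iars, Mars, Eprs and Rars rose, Qars fell, and Dars, Lars and Kars did not pass, with a median log2 fold change of 0.19. Of the 13 cytosolic genes counted here as outside the complex, 10 rose and 1, Tarsl2, fell, with a median of 0.28, and the groups did not overlap in any of the 13. Of all tested genes, 21.8% were called higher and 20.8% lower, and the groups did not overlap in 54.3%. The difference between the genes inside and outside the complex was not tested. Of the complex's 3 scaffold proteins, Eef1e1 (log2 fold change 0.76, adjusted p = 0.00168) and Aimp2 (0.45, adjusted p = 0.00946) rose, while Aimp1 had a log2 fold change of -0.14 (adjusted p = 0.137). By catalytic fold, 6 of 9 class I and 7 of 11 class II cytosolic genes rose, Eprs holding one domain of each.

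Among mitochondrial enzymes, the largest change was in Ears2, the glutamate enzyme, which also starts the indirect route by which mitochondria make glutaminyl-tRNA. Ears2, on chr7:122037213-122067263, was at 1.17, 1.03 and 0.867 FPKM in Ad-Con and 2.11, 2.01 and 2.03 FPKM in Ad-PDK4 (1.02 ± 0.153 against 2.05 ± 0.0550 FPKM; log2 fold change 0.95, SE 0.14, adjusted p = 0.00131). It rested on 81 to 231 reads per library, and the groups were far apart. Its exons share 89 bases, 1.73% of their length, with Ubfd1 on the opposite strand, whose log2 fold change was 0.67. Sars2, the serine enzyme, on chr7:28741992-28753871, was at 2.21, 2.58 and 1.91 FPKM in Ad-Con and 3.40, 3.40 and 3.14 FPKM in Ad-PDK4 (2.23 ± 0.333 against 3.31 ± 0.148 FPKM; log2 fold change 0.56, SE 0.12, adjusted p = 0.00723). Every Ad-PDK4 library was above every Ad-Con library in both genes.

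Wars2 and Iars2 fell. Wars2, the tryptophan enzyme, on chr3:99141068-99239186, was at 2.82, 2.98 and 3.19 FPKM in Ad-Con and 1.89, 2.08 and 2.19 FPKM in Ad-PDK4 (2.996 ± 0.187 against 2.05 ± 0.155 FPKM; log2 fold change -0.53, SE 0.10, adjusted p = 0.00438). Each Ad-PDK4 library was below each Ad-Con library. Iars2, the isoleucine enzyme, on chr1:185284726-185329396, was at 18.8, 19.2 and 18.8 FPKM in Ad-Con and 16.2, 16.6 and 16.3 FPKM in Ad-PDK4 (18.9 ± 0.194 against 16.3 ± 0.215 FPKM; log2 fold change -0.21, SE 0.05, adjusted p = 0.00826). The change of Iars2 was small but its libraries were close together within each group. Its exons share 22.9% of their length with Rab3gap2 on the opposite strand, and Rab3gap2 had 2416 to 3650 reads per library and a log2 fold change of 0.27.

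The other 12 mitochondrial genes did not pass. Mars2, Tars2, Yars2 and Lars2 had log2 fold changes of 0.39, 0.25, 0.22 and 0.12. Hars2, Fars2, Rars2 and Aars2 were within 0.04 of 0. Pars2, Nars2, Vars2 and Cars2 lay between -0.22 and -0.09, with Vars2 nearest to the threshold (adjusted p = 0.0564, and 0.0261 without Ad-PDK4 replicate 2). Yars2 and Lars2 passed the threshold when Ad-Con replicate 2 was left out, so that 4 mitochondrial genes in place of 2 were called higher. Nars2 had 72 to 130 reads per library and an interval from -0.69 to 0.39, wide enough to hold most of the changes called in other members. Exons of Hars and Hars2, neighbours transcribed away from each other, share 195 bases.

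The 2 compartments differed in level. Over the 6 libraries, the mean level ran from 2.85 FPKM for Tarsl2 to 118 FPKM for Nars in the cytosolic genes, with a median of 25.4 FPKM, and from 0.584 FPKM for Mars2 to 17.6 FPKM for Iars2 in the mitochondrial genes, with a median of 2.86 FPKM. In mean level over the 6 libraries, 15 cytosolic genes stood above every mitochondrial gene, as did 12 in the Ad-Con means and 17 in the Ad-PDK4 means. From the top, the order was Nars, Sars, Rars, Gars, Kars, Hars, Aars, Vars, Dars, Mars, Lars, Qars, Iars, Wars, Farsb, Iars2, Tars, Cars, Farsa, Eprs and Yars, followed by the rest of the mitochondrial genes and Tarsl2. Most neighbours in this order could not be told apart. Of 36 neighbouring pairs, 6 were separate in both groups: Nars over Sars, Sars over Rars, Tars over Cars, Eprs over Yars, Yars2 over Rars2 and Pars2 over Nars2. FPKM was scaled by the deposited gene length, which for some members far exceeded the longest annotated transcript. It was 18102 bases against 5638 for Eprs, 6583 against 3222 for Cars and 5901 against 4093 for Tars. Comparisons of level between genes, including these separations and the level ratios of pairs, therefore hold for that length alone. Replicates were closer together in the cytosolic genes (median coefficient of variation 3.07% in Ad-Con and 4.06% in Ad-PDK4) than in the mitochondrial genes (10.1% and 7.67%), whose levels and reads were lower.

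**Figure D3:**
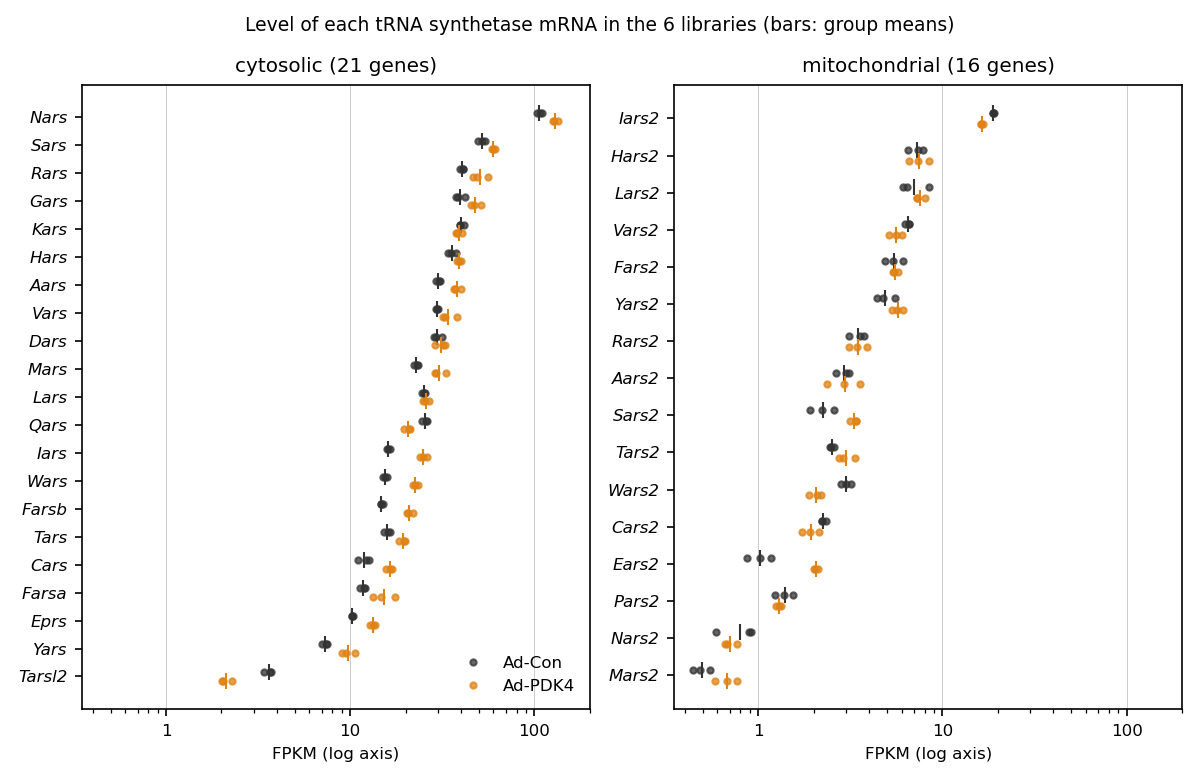
Level of each synthetase mRNA in FPKM (log axis) in the 3 Ad-Con and 3 Ad-PDK4 libraries (points), with group means as vertical bars, for the 21 cytosolic genes (left) and the 16 mitochondrial genes (right), ordered by mean level. Nars is highest at 118 FPKM and Mars2 lowest at 0.584 FPKM over the 6 libraries, and Iars2 stands apart from the other mitochondrial genes at 17.6 FPKM.

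Genes for the same amino acid were set side by side as 17 pairs of a cytosolic and a mitochondrial member, in which Eprs and Fars2 each appear in 2 pairs. The cytosolic member had the higher log2 fold change in 14 of the 17 pairs. The exceptions were Eprs with Ears2, Sars with Sars2 and Lars with Lars2. In 10 pairs the cytosolic gene rose and the mitochondrial gene did not pass, in 2 both rose, and in 2, isoleucine and tryptophan, the cytosolic gene rose and the mitochondrial gene fell. The ratio of the cytosolic to the mitochondrial level was higher in every Ad-PDK4 library than in every Ad-Con library in 8 pairs, and lower in 2 (Eprs over Ears2 and Sars over Sars2). No such share was made for pairs of other genes. Of all tested single genes, 54.3% separated in either direction, 21.8% were called higher and 20.8% lower. The pair counts largely restate the rise of the cytosolic genes and were not tested.

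The tryptophan pair was furthest apart. The level of Wars over that of Wars2 was 5.17 ± 0.254 in Ad-Con and 11.1 ± 1.24 in Ad-PDK4 (mean ± SD, n = 3). In the isoleucine pair the order of the levels turned: Iars over Iars2 was 0.852 ± 0.0185 in Ad-Con, with the mitochondrial mRNA the higher one, and 1.53 ± 0.0875 in Ad-PDK4, with the cytosolic mRNA the higher one. Glutamate ran the other way, with Eprs over Ears2 at 10.2 ± 1.55 in Ad-Con and 6.49 ± 0.226 in Ad-PDK4. Methionine and threonine showed nearly equal log2 fold changes in both members, 0.41 and 0.39 for Mars and Mars2 and 0.28 and 0.25 for Tars and Tars2, but the mitochondrial member passed in neither pair.

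**Figure D4:**
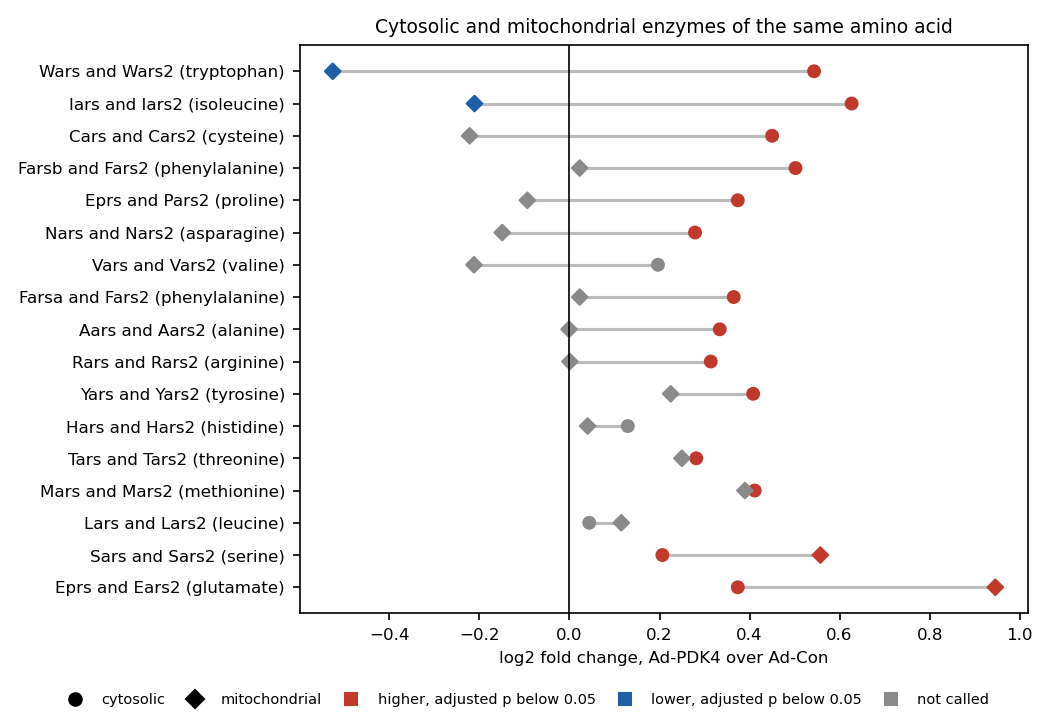
Log2 fold change, Ad-PDK4 over Ad-Con (x axis), of the cytosolic (circle) and mitochondrial (diamond) gene for the same amino acid in 17 pairs (rows), ordered by the difference between the members and coloured by the test at an adjusted p below 0.05. The circle lies to the right of the diamond in 14 rows, by the most for Wars and Wars2 at 0.54 and -0.53, and to the left for Lars, Sars and Eprs with Ears2.

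Other genes of tRNA charging differed in direction by list. Calls went both ways in the mitochondrial and the maturation lists. The elongation factor 1 and editing lists had lower calls only, in 2 of 4 and 2 of 3 tested genes. Among all tested genes, 21.8% were called higher and 20.8% lower, and these lists are too short to set apart from that. In the elongation factor 1 complex, which brings charged tRNAs to the cytosolic ribosome, Eef1a1 and Eef1b2 fell (each with a log2 fold change of -0.49) and Eef1g and Eef1d did not pass. Of 8 mitochondrial genes for tRNA amidation, formylation and elongation, Gfm2 rose (0.39, adjusted p = 0.0144) and Gatb and Gfm1 fell (-0.31 and -0.22, adjusted p = 0.0487 and 0.0257), but both lower calls were lost without any one of Ad-Con replicates 1 and 3 and Ad-PDK4 replicates 1 and 3, and 1 of them without Ad-Con replicate 2. Of the 3 measured editing and D-aminoacyl-tRNA enzymes Dtd2 and Prorsd1 fell (-0.38 and -0.28), but 1 alone was called without Ad-Con replicate 2, Ad-Con replicate 3 or Ad-PDK4 replicate 2. Of 10 genes of tRNA maturation and export, Xpot, the tRNA exporter, rose (0.31, adjusted p = 0.00220) and Elac2, which trims tRNA 3′ ends, fell (-0.24, adjusted p = 0.0379), the latter call being lost without any one Ad-Con library or Ad-PDK4 replicate 1, whereas 3 of the 10 were called lower without Ad-PDK4 replicate 2.

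The genes for the partners of the mitochondrial enzymes, the tRNAs of mitochondrial DNA, had at most 861 reads each in a library, and 5 of the 22 were below the minimum level. These genes are 59 to 75 bases long, and reads of mature tRNAs cannot be told from reads of longer transcripts that hold them. The values below therefore do not measure the tRNAs alone. Of the 17 tested, 10 were called lower and none (0) higher, against 20.8% and 21.8% of all tested genes, and the median log2 fold change was -1.05. In 2 of them no Ad-PDK4 library had more than 3 reads, and with these at the bound that 3 reads per library set the median was -0.87. The number called lower was 6 without Ad-Con replicate 3 and between 6 and 13 over all fits that left out 1 library. Mitochondrial synthetase mRNAs, with a median of 0.012, showed no such shift.

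Genes known to move with cytosolic synthetases in stressed cells were higher for the most part. Of 23 tested genes of a list of ATF4 and its targets outside the synthetases, 16 rose and 5 fell, with a median log2 fold change of 0.34. These shares were 69.6% higher and 21.7% lower, against 21.8% and 20.8% of all tested genes. Ddit3, which encodes the stress factor CHOP, was at 48.5 ± 0.532 FPKM in Ad-Con and 193 ± 11.4 FPKM in Ad-PDK4, and Atf3, a stress-induced transcription factor, at 1.42 ± 0.189 and 5.92 ± 0.516 FPKM (log2 fold change 1.99 for each, adjusted p = 1.50e-07 and 1.12e-05). Ddit4 and Pycr1, a proline synthesis gene, fell (both -0.65, adjusted p = 0.00762 and 0.00801). Atf4 mRNA itself, which is regulated largely in its translation, did not pass (103 ± 6.15 against 95.2 ± 4.34 FPKM, log2 fold change -0.12, adjusted p = 0.148). Every Ad-PDK4 library lay below every Ad-Con library for Atf4, as in 26.5% of all tested genes. Of the 4 kinases that phosphorylate eIF2alpha, Eif2ak2, the double-stranded RNA sensor and an interferon-induced gene, rose (log2 fold change 1.51) and Eif2ak3 and Eif2ak4 fell (-0.41 and -0.23), 1 of which was called without Ad-Con replicate 2 or 3 or Ad-PDK4 replicate 1 or 2.

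All 14 genes of an interferon-responsive list rose, against 21.8% of all tested genes, with a median log2 fold change of 3.36. Ifit1, a known interferon-induced gene, had one of 5.05. Changes in the synthetases were small beside these, Wars included, at 0.54. The part of the ATF4 list or of the interferon list in the synthetase changes was not tested. Both lists were chosen with earlier results of these data known, so their counts describe these libraries and test nothing.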

How the data were processed

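Processed values came from RNA-seq of 3 Ad-Con and 3 Ad-PDK4 libraries of MASMCs. Deposited values were FPKM made by the authors, with 1 column for each library and no pooling of replicates. The submitters' processing notes name CASAVA 1.8, fastp, HISAT2 2.0.5, featureCounts 1.5.0-p3, DESeq2 1.20.0 and GRCm39, but the coordinates matched GENCODE M21 (GRCm38) for 98.3% of 54409 shared identifiers and for 34 of the 37 members, and they are given on that build. FPKM times the deposited gene length (in bases) gave whole reads for 100% of values within 0.01, and these recovered reads give the depths.

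Log2(FPKM + 0.1) was tested with limma 3.58.1 in R 4.3.3 (no covariates, trend and robust moderation, two-sided, Benjamini-Hochberg over 13423 genes of mean FPKM at least 0.5). The procedure was also run on simulated reads, with far fewer changed genes than were called here and a fixed spread. That run does not measure its error on these data. Every adjusted p is from the limma fit above unless another run is named. An exact permutation test of 3 against 3 cannot go below p = 0.1 and was not used.

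Of 38 genes matching the rule, 1 is not reported here and enters no count. Members and lists were chosen with earlier results of these data known. Full values were given for called members among the 6 largest rises or falls of a compartment, and at most 2 rises and 2 falls were named per further list. Aimp1, Eef1g, Eef1d, Atf4, single cell markers and genes overlapping a member were named outside this rule, with their values known. Where a symbol occurred in more than 1 row, the row with reads was used. Alternatives were other pseudocounts, filters, scalings, moderation, a replicate block, limma-voom on recovered reads, each library left out, and other places for Tarsl2, Gars and Kars.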

Additional observations from a re-analysis of the deposited data

How the results depend on the processing

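Under every alternative run, 19 of the 20 called members kept their call and direction, the exception being Farsa without Ad-Con replicate 1 or 3. Of the 17 members not called, 6 passed in at least 1 alternative (Vars, Hars, Mars2, Yars2, Lars2 and Vars2), Vars for example with limma-voom on recovered reads. The number of cytosolic genes called higher stayed between 13 and 16. With a filter at a mean of 5 FPKM, which removes Tarsl2 and most mitochondrial genes, 1 cytosolic gene was lower, no mitochondrial gene (0) was higher and the cytosolic median log2 fold change was 0.30. Counting Tarsl2 as mitochondrial also left 1 cytosolic gene lower. The cytosolic median was 0.32 after rescaling to TPM, 0.25 after quantile normalization and 0.31 without Gars and Kars, against 0.28, and between 0.25 and 0.30 with each library left out in turn. Leaving out libraries gave 2 to 4 mitochondrial genes higher, 4 without Ad-Con replicate 2. Same-numbered libraries showed no visible shared deviation from their group means, with correlations of -0.046, -0.031 and -0.0013. Whether they were paired in the experiment is not stated, and these values cannot decide it. With a replicate block, the counts were again 14 cytosolic genes higher and 2 lower, and 2 mitochondrial genes higher and 2 lower. Depth was lowest for the least abundant mitochondrial genes, with 70 reads in a library at the minimum.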
